A study of Mus musculus with 2 samples.

Results

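Macrophages that carried transcripts of both Ms4a7 and Cd74 made up 329 of the 22960 cells recovered from the ischemic mouse brain, 210 of 15050 cells in replicate 1 and 119 of 7910 cells in replicate 2. They were chosen by their transcript counts. A cell needed at least 2 unique molecular identifiers (UMIs, each counting 1 captured transcript) of Ms4a7 and at least 3 of Cd74. It had to have fewer than 10 UMIs per 10000 over 6 microglia genes (P2ry12, Tmem119, Sparc, Gpr34, Olfml3 and Siglech). Cells with any UMI of Arg1, Cd209a or Marco, with 20 or more UMIs per 10000 of Gpnmb or of S100a8 and S100a9 together, or with 3 or more UMIs over the 4 division genes Mki67, Top2a, Birc5 and Ube2c were left out. The Cd74 step removed most candidates: it reduced 4039 Ms4a7 cells to 503 in replicate 1 and 555 to 172 in replicate 2.

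The series holds 1 group of mice, with ischemic stroke and the Foxp3Egfp genotype, in which GFP reports on Foxp3, the lineage factor of regulatory T cells. The mice were 6 to 8 weeks old and were sampled as 2 replicate libraries. Brain cells were sorted as CD45+CD11b+CD3-F4/80+ and put through droplet 3' RNA sequencing. There is no group without stroke, so the comparisons below are between kinds of cells within the same 2 libraries. The labels state that cDNA of stroke mice was pooled for sequencing and do not tie the replicates to different animals. The spread behind the p-values may therefore be technical. A low signal in the sort is mentioned, but which marker was low is not given.

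Major histocompatibility complex (MHC) class II molecules display peptides from engulfed material to CD4 T cells. Cd74 is the invariant chain that guides newly made class II molecules to the endosome, where cathepsins trim it and the H2-DM complex loads the peptide, and Ciita is the master regulator of these genes. Ms4a7 is a membrane protein found in macrophages of bone marrow origin and at brain borders rather than in resident microglia. Monocytes that enter an injured brain mature into macrophages that take up lipid and debris, and some of them turn on class II genes.

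The libraries held 101893367 and 62850768 UMIs, and the cells a median of 5356 and 5891.5 UMIs. Ms4a7+Cd74+ macrophages had a median of 6165 UMIs and 1729 genes in replicate 1 and 9357 UMIs and 2253 genes in replicate 2. Their sums held 1378287 and 1170321 UMIs, and levels below are counts scaled to 1000000 UMIs of such a sum (CPM), given as replicate 1 and then replicate 2. Comparison classes were gated in the same way: microglia (12075 cells), monocytes with transcripts of Ly6c2, Plac8 or Chil3 and little Ms4a7 (513), Arg1 macrophages (634), Gpnmb macrophages (2269), Cd209a dendritic cells (69) and macrophages with 2 or more Ms4a7 UMIs but fewer than 3 of Cd74 (1166, here Cd74-low). Monocytes of replicate 1 were shallower than those of replicate 2, with medians of 2349.5 and 6389 UMIs. The 2 libraries shared 31 cell barcodes, and 0 barcodes belonged to an Ms4a7+Cd74+ macrophage in both.

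The share of Ms4a7+Cd74+ macrophages among all cells was 1.40% in replicate 1 (95% Clopper-Pearson interval 1.21% to 1.60%) and 1.5% in replicate 2 (1.25% to 1.80%). The mean was 1.45% ± 0.077 (SD, n = 2), and the intervals, which cover counting error only, overlapped. Some other gated classes differed far more between the libraries: Gpnmb macrophages were 14.6% and 0.847% of the cells, and Cd74-low macrophages 6.73% and 1.93%. Arg1 macrophages did not, at 2.71% and 2.86%. No other class is compared by its share.

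Ms4a7 and Cd74 were used to choose the cells and H2-Aa moves with Cd74, so of the 6 markers given for these cells only Apoe, Cxcr4 and Mndal bear on their label. Ms4a7, used to choose the cells, stood at 973 and 940 CPM, beside 1081 and 947 CPM in Cd74-low macrophages and 105 and 22.6 CPM in microglia. Apoe, the lipid carrier of macrophages, reached 94801 and 68884 CPM, above the monocytes at 24456 and 8002 CPM but below the Cd74-low macrophages in both libraries. Cxcr4, the receptor for Cxcl12, was at 118 and 129 CPM, overlapping with monocytes (136 and 123) and just below Cd74-low macrophages (134 and 133). Mndal, an interferon-inducible gene of the Ifi200 family, was at 37.7 and 127 CPM, below the monocytes at 168 and 218. None of Apoe, Cxcr4 and Mndal was higher than in the Cd74-low macrophages in both libraries, so these 3 markers do not set the cells apart from other Ms4a7 macrophages, and the cells are called by their rule.

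Cd74, the H2 class II genes and Ciita are described first and without tests, because Cd74 chose the cells and moves with them. Cd74 was at 3171 and 7665 CPM in the Ms4a7+Cd74+ macrophages. That was above every other macrophage class and the microglia (253 and 367) in both libraries, above the monocytes (2407 and 3550) within each library, and below the dendritic cells (20413 and 31058). H2-Aa, the alpha chain of the I-A molecule, was at 914 and 2523 CPM, against 74.1 and 105 in microglia, 51.8 and 126 in Arg1 macrophages and 4.38 and 3.68 in Cd74-low macrophages. The 2 libraries of Ms4a7+Cd74+ cells did not overlap with those of these 3 classes, but they overlapped with the monocytes at 753 and 1275. H2-Ab1, the I-A beta chain, was at 1043 and 2906 CPM, and H2-Eb1, the I-E beta chain, at 1020 and 2795 CPM. Both lay far below dendritic cells, where H2-Ab1 was at 10707 and 14852 CPM. H2-Aa (chr17:34282744-34287823, minus strand), H2-Ab1 (chr17:34257689-34269419) and H2-Eb1 (chr17:34305867-34316674, both plus strand) lie close together in GRCm38. Reads shared among near-identical H2 genes cannot be assigned with certainty from the sources used here.

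The chaperones and regulators of class II loading did not all follow the H2 genes. Ciita was at 5.08 and 12 CPM in Ms4a7+Cd74+ macrophages, above the microglia (1.32 and 1.18) within each library. It was below the monocytes (10.1 and 19.6) and dendritic cells (140 and 174) within each library. In replicate 1 the Ms4a7+Cd74+ cells and the monocytes each held 7 Ciita UMIs, so their order there rests on few counts. H2-DMa, a chain of the peptide loader, was at 141 and 241 CPM and overlapped with microglia (178 and 230) and monocytes (197 and 214). The Arg1 macrophages were lower, at 57.1 and 57.2 CPM. H2-DMb1 was at 72.6 and 222 CPM and also overlapped with microglia, at 76.9 and 119. H2-Oa, part of the inhibitor of H2-DM, was at 7.98 and 0.854 CPM, below the microglia (31.7 and 42.4) and the dendritic cells (268 and 382). H2-Eb2 had 0 UMIs, which allows up to 2.18 CPM in replicate 1 and 2.56 in replicate 2 (3 counts in each library).

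**Figure D1:**
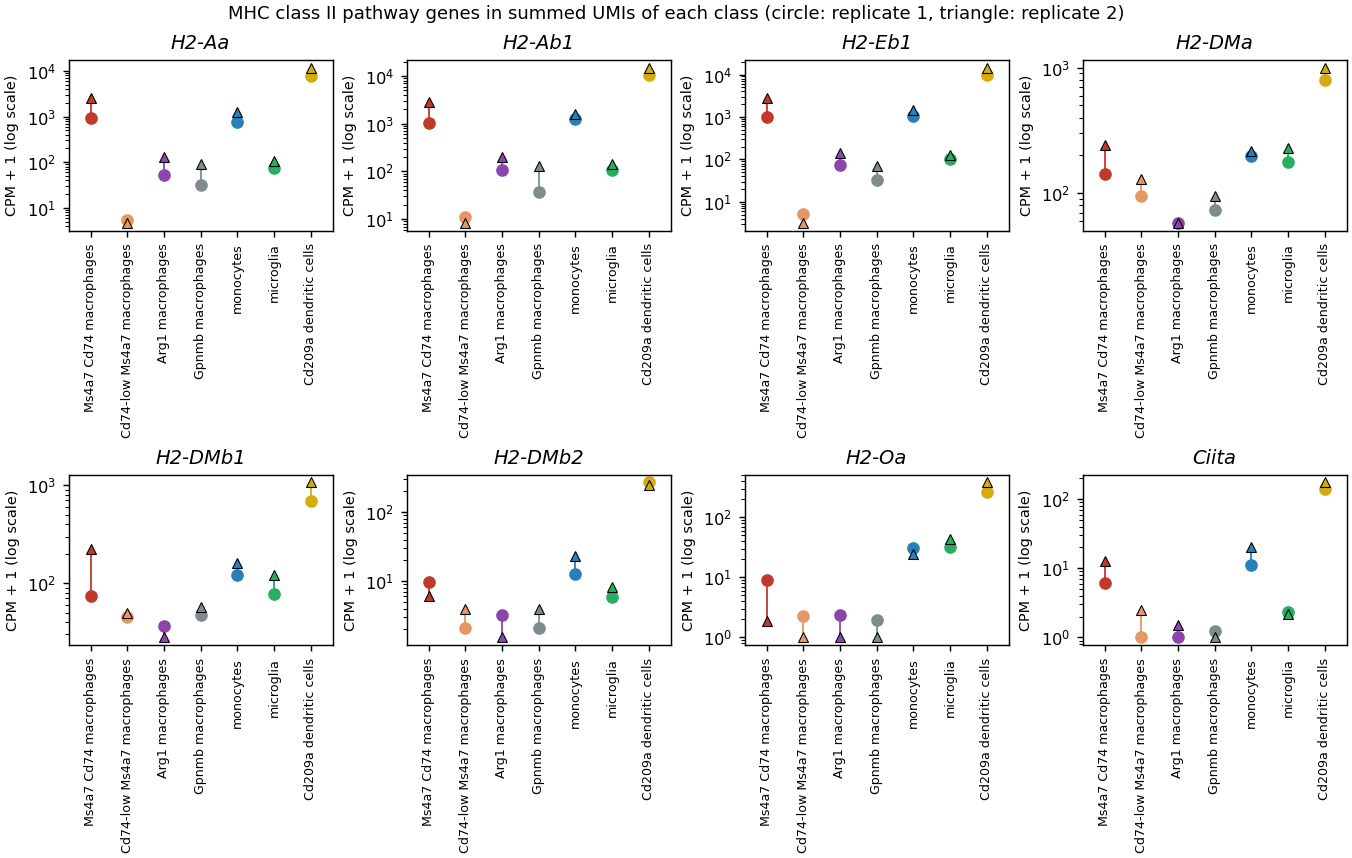
Levels of 8 MHC class II pathway genes in each gated class, 1 point per library, as CPM with 1 added on a logarithmic axis. H2-Aa, H2-Ab1 and H2-Eb1 of the Ms4a7+Cd74+ macrophages lie above microglia, Arg1, Gpnmb and Cd74-low macrophages and below the dendritic cells, while H2-DMa overlaps with microglia.

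The monocytes had a summed class II level like that of the Ms4a7+Cd74+ macrophages in replicate 1 and a lower one in replicate 2. Each Ms4a7+Cd74+ cell had to carry Cd74 and a monocyte did not, so the shares of cells with H2 UMIs that follow are set in part by the gates. The 3 genes H2-Aa, H2-Ab1 and H2-Eb1 together made 2978 and 8224 CPM in the Ms4a7+Cd74+ cells and 3017 and 4371 CPM in the monocytes. Among the former, 27 cells (12.9%) and 14 cells (11.8%) had no UMI of these genes, while 208 (80.6%) and 201 (78.8%) of the monocytes had none. In both classes most of these UMIs lay in cells with 10 or more of them. In monocytes these were 27 and 30 cells, with 96.4% and 99.3% of the class's total, and in Ms4a7+Cd74+ macrophages 90 and 81 cells, with 90.5% and 99.3%. With every cell thinned to 2000 UMIs, 53.7% and 65.3% of the Ms4a7+Cd74+ cells held an H2-Aa UMI, against 15.1% and 12.6% of the monocytes. Unthinned, these shares were 75.2% and 78.2%, against 15.1% and 15.3%, and 4.07% and 2.99% in microglia at median depths of 3979 and 5342 UMIs. Barcodes under 100 UMIs, which carry free RNA, held 193 and 739 CPM of Cd74 and 60.2 and 258 CPM of H2-Aa.

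Class II levels were graded within the Ms4a7+Cd74+ macrophages. The median cell had 10 Cd74 UMIs in replicate 1 and 50 in replicate 2, with maxima of 149 and 405. In cells with 3 to 5 Cd74 UMIs, the summed level of the 3 H2 genes was 300 and 320 CPM. It was 910 and 230 CPM in cells with 6 to 11 UMIs, 1587 and 1111 CPM with 12 to 23 and 8487 and 13045 CPM with 24 or more. The levels followed the order of the ranges in replicate 1, and in replicate 2 apart from the lowest pair, where 28 of the 45 H2 UMIs of the cells with 3 to 5 Cd74 UMIs came from 1 cell of 1046 UMIs. The 133 cells with 24 or more Cd74 UMIs, 40.4% of the 329, held 79.0% and 97.5% of the H2 UMIs. The cells with the most H2 UMIs differed widely in Apoe. In replicate 1 those with 219, 168, 166 and 156 H2 UMIs had 3.94, 1054.8, 37.6 and 9.40 Apoe UMIs per 10000. In replicate 2 those with 534, 457, 372 and 340 had 20.02, 436, 0 and 6.04. Whether the cells with much H2 and little Apoe are macrophages was not tested. Just outside the threshold, Cd74-low cells with exactly 2 Cd74 UMIs (35 and 11 cells) had 144 and 80.6 CPM of the H2 genes, and those with 1 (93 and 22 cells) had 61.8 and 22.2 CPM. Across cells thinned to 2000 UMIs, Spearman's rho of Cd74 with the summed H2 UMIs was 0.75 over 205 cells and 0.91 over 118 cells, as a description of cells that share a library.

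**Figure D2:**
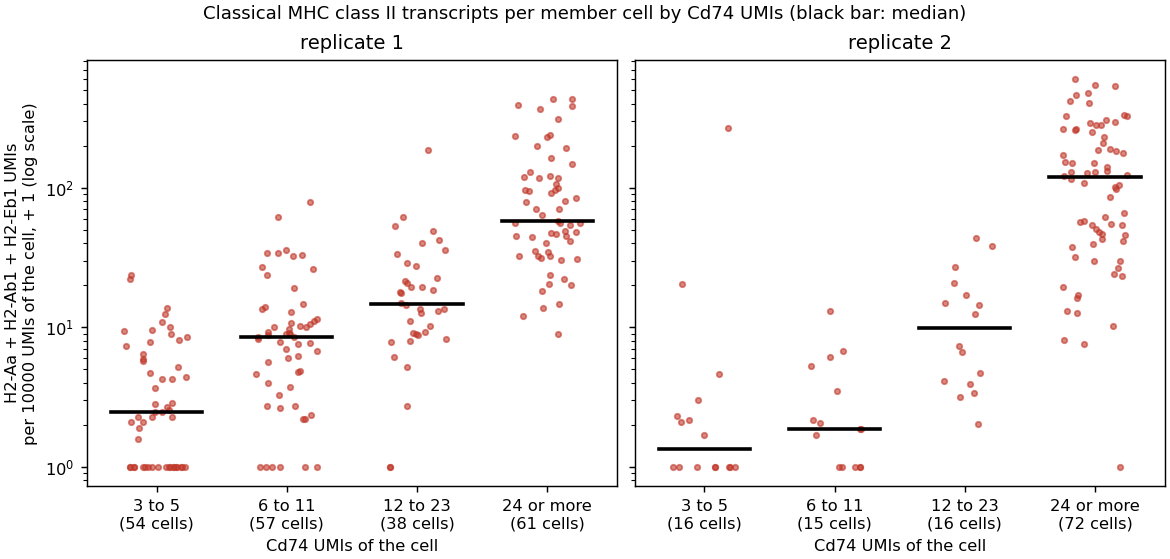
Summed H2-Aa, H2-Ab1 and H2-Eb1 UMIs per 10000 (with 1 added, logarithmic axis) of single cells by their Cd74 UMI count, for each library, with 1 point per cell and black bars at the medians. Most H2 transcripts lie in the cells with 24 or more Cd74 UMIs.

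Class II promoters carry conserved boxes that bind the RFX and NF-Y factors and through them Ciita. A pair of cores of these boxes, GCAAC followed after 20 to 40 bases by GATTGG, was searched on both strands in the 250 bases before each start in RefSeq (GRCm38.p6). Of the 14 genes of the class II list 11 had an entry, with 13 windows. Cd74, H2-Ab1 and Ciita had none and were not searched. The pair was held by 5 genes, and by 97 of 32851 windows of the same length (0.295%). GATTGG alone was in 14.6% and GCAAC alone in 29.9% of the windows. The stretches are shown because this element is known from class II promoters and lets the H2 genes be compared base by base. The capitals mark the 2 cores.
H2-Aa: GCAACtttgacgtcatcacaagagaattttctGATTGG
H2-Eb1: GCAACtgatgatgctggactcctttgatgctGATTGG
H2-Eb2: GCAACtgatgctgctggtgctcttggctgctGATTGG
H2-Oa: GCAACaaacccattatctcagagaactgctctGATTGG
H2-Ob: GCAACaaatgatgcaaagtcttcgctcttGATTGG
They lie at chr17:34287867-34287904 (H2-Aa, minus strand), chr17:34305776-34305812 (H2-Eb1), chr17:34325543-34325579 (H2-Eb2), chr17:34092303-34092340 (H2-Oa) and chr17:34238818-34238852 (H2-Ob), the last 4 on the plus strand. In H2-Aa, GATTGG begins 49 bases before the start and in H2-Eb1 60 bases before it. Among the genes searched, the pair did not follow the levels. H2-Aa and H2-Eb1 hold it and were abundant, while H2-Oa and H2-Ob hold it and were at most 7.98 and 2.56 CPM. H2-DMa and H2-DMb1 do not hold it as an exact match in this window. The H2-DMb1 window holds GATTGG without an exact GCAAC, and inexact cores were not searched.

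The whole 250-base window of H2-Aa, at chr17:34287824-34288073 on the minus strand and ending just before the start, shows the pair in its surroundings.
H2-Aa promoter: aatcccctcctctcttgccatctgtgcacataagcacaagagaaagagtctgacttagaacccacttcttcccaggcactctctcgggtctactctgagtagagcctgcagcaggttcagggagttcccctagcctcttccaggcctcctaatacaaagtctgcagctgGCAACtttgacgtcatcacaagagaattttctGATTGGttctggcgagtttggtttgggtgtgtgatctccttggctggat

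All other genes were compared between the Ms4a7+Cd74+ macrophages and 4 classes, using sums per library and the library as a block in edgeR. A gene was called at a Benjamini-Hochberg adjusted p under 0.05 over all genes tested. These genes were counted in the same cells that the gates chose, so a difference is between gated classes and not between independently defined cell types. Fold changes are log2 values ± standard error with 2 libraries per class, and positive values are higher in the Ms4a7+Cd74+ macrophages. The 21 genes of the gates were left out of the tests.

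Against microglia the Ms4a7+Cd74+ macrophages had more transcripts of Clec12a, lysozyme, galectin 3 and lipid-handling genes, and fewer of C1qa, C1qc and several costimulatory and immediate early genes. Of 9410 genes, 18.7% were called higher and 19.6% lower (38.3% in all), which is the background for the lists below. Clec12a, an inhibitory C-type lectin of myeloid cells, was at 155 and 200 CPM, against 14.0 and 5.35 CPM. The libraries of the 2 classes did not overlap, and the log2 fold change was 4.57 ± 0.46 (edgeR adjusted p = 0.00044). Lyz2, which encodes lysozyme, was at 22161 and 19322 CPM, against 3354 and 1589 (log2 fold change 3.41 ± 0.37, edgeR adjusted p = 0.0014). Cybb, the catalytic subunit of the phagocyte NADPH oxidase, was higher by 3.41 ± 0.32, and Lgals3, which encodes galectin 3, by 3.62 ± 0.54 on the log2 scale. Cx3cr1, the fractalkine receptor abundant in microglia, was lower at 321 and 302 CPM against 1948 and 2011 (-2.38 ± 0.33). All 9 tested microglia markers outside the gate were called lower, with Crybb1 at -5.59 ± 0.28. The gates split the 2 classes by 6 other microglia genes. These lower levels, like that of Cx3cr1, therefore follow in part from the gates.

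Of 23 lipid-handling genes 12 were higher and 2 lower against microglia, with a list median of 0.65 beside -0.07 over all genes. Lipa, the lysosomal acid lipase, was at 401 and 287 CPM against 146 and 92.0 CPM. Fabp5, a fatty acid carrier, was at 4325 and 1552 CPM against 946 and 287. The libraries did not overlap for either gene, and the log2 fold changes were 1.84 ± 0.20 and 2.58 ± 0.28 (edgeR adjusted p = 1.7e-05 and 0.00074). Lpl, the secreted lipoprotein lipase, was at 379 and 107 CPM and overlapped with microglia at 227 and 127. Of 14 heme, iron and oxidative stress genes 8 were higher and 1 lower (median 1.29). The 8 included the ferritin chains Ftl1 (1.82 ± 0.14) and Fth1 (1.39 ± 0.22), and the lower gene was Slc40a1, the iron exporter ferroportin (-2.97 ± 0.34).

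The costimulatory genes did not follow class II. Of 14 tested, 3 were higher than in microglia (Cd40, Cd200r1 and Cd48) and 7 lower. Cd86, a ligand of CD28 on T cells, was at 30.5 and 64.1 CPM against 135 and 194 in microglia, without overlap (-1.59 ± 0.18, edgeR adjusted p = 2.7e-06). Cd83, which stabilises class II and Cd86 at the cell surface, was at 146 and 220 CPM against 489 and 495 (-1.16 ± 0.18, edgeR adjusted p = 9.1e-05). Cd48, an adhesion ligand for lymphocytes, was at 276 and 290 CPM against 126 and 143 (1.37 ± 0.12). Of 16 class I genes 5 were higher and the other 11 were not called. The 5 included H2-D1, which encodes the presenting heavy chain (0.78 ± 0.11), and the immunoproteasome subunit Psmb8 (0.72 ± 0.13).

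Among the other lists compared with microglia, the Ms4a family had 6 of 8 tested genes higher (median 2.14), such as Ms4a6c at 471 and 766 CPM against 185 and 139. The gate gene Ms4a7 is not among the 8. Of the 6, Ms4a8a had 0 UMIs in replicate 1 and lost its call without the library block (edgeR adjusted p = 0.0796) and with thinning to 2000 UMIs (0.114), and Ms4a4a with thinning (0.48). The Ms4a family was not higher against every class. Against monocytes 0 of the 8 were called higher and 4 lower (median -1.12), beside 8.04% and 9.33% of all genes. Against Arg1 macrophages 0 were higher and 1 lower (Ms4a6d), beside 3.27% and 2.72%. Complement and Fc receptors were divided against microglia, with 5 higher and 6 lower of 17. C1qa was at 4213 and 3725 CPM against 10155 and 11702 (-1.20 ± 0.31, edgeR adjusted p = 0.029). Of 18 immediate early genes 7 were lower and 2 higher, and of 18 inflammatory mediators 8 were lower, Tnf among them (78.4 and 113 CPM against 386 and 288), and 1 was higher (Il10, 11.6 and 8.54 CPM against 2.12 and 0.454). Axl and Mertk, both receptors for dying cells, moved apart: Axl was higher (1.87 ± 0.18) and Mertk lower (-2.21 ± 0.28). Without the library block the calls of C1qa, Fabp5 and Cd86 were lost (edgeR adjusted p = 0.0764, 0.079 and 0.0783), and with at least 2000 UMIs and 1000 genes per cell that of C1qa too (0.0848).

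The microglia gate counted Sparc, which fibroblasts also make, and 210 and 90 of its cells had 3 or more collagen UMIs (Col1a1, Col1a2 and Col3a1). They held 99.7% of the class's collagen UMIs in each library. In an alternative chosen after seeing the data, these cells were left out, and of 163 genes called and named in this comparison 158 stayed called. The 5 lost were Psmb9, Abcg1, Fosb, Ctsc and Stab1. The collagens themselves are therefore not reported as a difference.

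Against monocytes the Ms4a7+Cd74+ macrophages had more transcripts of the 3 C1q chains, Trem2, Lpl and lysosome genes and fewer of Vcan, Slpi, Thbs1 and genes of the interferon gamma list. Of 9410 genes 8.04% were called higher and 9.33% lower (17.4% in all). Trem2, a lipid-sensing receptor, was at 1908 and 1543 CPM against 555 and 194 CPM (2.35 ± 0.36, edgeR adjusted p = 0.010). Lpl was at 379 and 107 CPM against 27.5 and 13.7 (3.44 ± 0.29, edgeR adjusted p = 1.7e-05). Neither gene overlapped between the classes. The 3 C1q chains, which start the classical complement pathway, were all higher, with C1qb at 5743 and 5447 CPM against 1306 and 544 (2.70 ± 0.36, edgeR adjusted p = 0.0062).

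Genes that digest engulfed material and handle its lipid came next. Of 16 cathepsin and lysosome genes 10 were higher and the other 6 were not called (median 0.93 beside 0.01 over all genes). Ctsd, which encodes the aspartic protease cathepsin D, was at 7830 and 5040 CPM against 2259 and 1181 (1.96 ± 0.14, edgeR adjusted p = 1e-05), and Ctsb, cathepsin B, was higher by 1.52 ± 0.10. Ctss, the cathepsin that cuts the invariant chain, was at 3225 and 4341 CPM against 2395 and 2384 (0.66 ± 0.10, edgeR adjusted p = 0.00014). Of 23 lipid-handling genes 8 were higher and 1 lower (median 1.11), and of 14 clearance receptors 5 were higher and 2 lower, with Axl (1.78 ± 0.22), Mertk (1.84 ± 0.44) and their ligand Gas6 (2.03 ± 0.29) among the 5.

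Several genes of circulating monocytes were low: of 9 tested monocyte markers 5 were lower and the other 4 were not called. The monocytes were gated on Ly6c2, Plac8 and Chil3, so this follows in part from the gate. Vcan, the matrix proteoglycan versican, had 1 UMI in each library of Ms4a7+Cd74+ cells (0.726 and 0.854 CPM) against 149 and 129 CPM in monocytes. Slpi, a secreted protease inhibitor, was at 4.35 and 36.7 CPM against 1069 and 2498 (-6.72 ± 0.94, edgeR adjusted p = 0.0083), and Thbs1, thrombospondin 1, at 171 and 213 CPM against 2827 and 1849 (-3.58 ± 0.59, edgeR adjusted p = 0.014). Neither overlapped. Of 13 interferon gamma list genes 7 were lower and the other 6 were not called (median -1.47), with the guanylate-binding Gbp2 at 5.80 and 7.69 CPM against 21.7 and 35.6. Of 16 glycolysis and HIF genes 7 were lower and 9 were not called (median -0.71).

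Costimulatory genes were again divided, with 3 higher and 3 lower of 14. Cd83 was at 146 and 220 CPM against 116 and 102 in monocytes (0.77 ± 0.19, edgeR adjusted p = 0.012). Cd86 was at 30.5 and 64.1 CPM against 87.0 and 151 (-1.35 ± 0.20, edgeR adjusted p = 0.00013), and Cd80, the other CD28 ligand, at 0.726 and 4.27 CPM against 29.0 and 19.0 (-3.23 ± 0.65, edgeR adjusted p = 0.0021). Without the library block the calls of Lpl, Gas6, Cd83, Cd86 and Slpi were lost (edgeR adjusted p from 0.053 to 0.18). With at least 2000 UMIs and 1000 genes per cell those of Trem2, Mertk, Cd83 and Gbp2 were lost (0.0574 to 0.0885).

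Against Arg1 macrophages, which carry at least 3 UMIs of the arginine-degrading enzyme arginase 1, the differences were fewer: 3.27% of 9410 genes were called higher and 2.72% lower (5.99% in all). The Ms4a7+Cd74+ cells had less of the heme and glycolysis genes and more Clec12a, Axl, Tmem176 and Cd83. Hmox1, the heme-degrading enzyme heme oxygenase 1, was at 527 and 1068 CPM against 7363 and 7672, without overlap (-3.28 ± 0.51, edgeR adjusted p = 0.028). Of 14 heme, iron and oxidative stress genes 7 were lower and the other 7 were not called (median -0.99 beside 2.5e-05 over all genes).

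Of 16 glycolysis and HIF genes 12 were lower than in Arg1 macrophages and the other 4 were not called (median -1.34). Pgk1, a glycolytic kinase, was at 112 and 146 CPM against 295 and 483 (-1.54 ± 0.19, edgeR adjusted p = 0.00019). Slc2a1, the glucose transporter GLUT1, was at 10.9 and 14.5 CPM against 36.3 and 57.2 (-1.83 ± 0.26, edgeR adjusted p = 0.00032). The libraries did not overlap for either gene, and the same was true of Hilpda, a hypoxia-induced lipid droplet protein, at 109 and 54.7 CPM against 528 and 426. Of 18 chemokines 3 were lower (Ccl6, Ccl9 and Cxcl1) and the other 15 were not called. Ccl6 and Ccl9, CC chemokines that attract myeloid cells, were at 95.8 and 110 and at 66.8 and 121 CPM, against 881 and 905 and 370 and 525. Both were called lower (-3.09 ± 0.46 and -2.25 ± 0.23), as were the complement and Fc receptor genes C5ar1 (-1.25 ± 0.15) and Fcgr4 (-1.45 ± 0.20).

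Among the genes higher than in Arg1 macrophages, Clec12a was at 155 and 200 CPM against 24.8 and 23.3 (2.95 ± 0.48, edgeR adjusted p = 0.022). Axl was at 112 and 110 CPM against 27 and 21.7 (2.23 ± 0.21, edgeR adjusted p = 5.2e-06). Tmem176b, a cation channel protein of the endosomal system, was at 152 and 408 CPM against 46.5 and 42.9 (2.55 ± 0.32, edgeR adjusted p = 0.0042), and its neighbour Tmem176a was higher by 2.54 ± 0.30. None of these overlapped. Cd83 was at 146 and 220 CPM against 61.5 and 67.2 (1.52 ± 0.19, edgeR adjusted p = 0.00022). Among 20 transcription factors 4 were higher (Irf8, Cebpa, Batf3 and Mef2c) and 2 lower. Batf3, a factor of dendritic cells, was at 19.6 and 14.5 CPM against 4.87 and 2.65 (2.20 ± 0.42). Lpl (1.81 ± 0.23) and Selenop (1.43 ± 0.22) lost their calls without the library block, at an edgeR adjusted p of 0.455 and 0.138, and Batf3 and Slc2a1 with cells thinned to 2000 UMIs (0.411 and 0.0929). The call of Irf8 was lost under 4 settings, with an edgeR adjusted p from 0.0678 to 0.181.

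**Figure D3:**
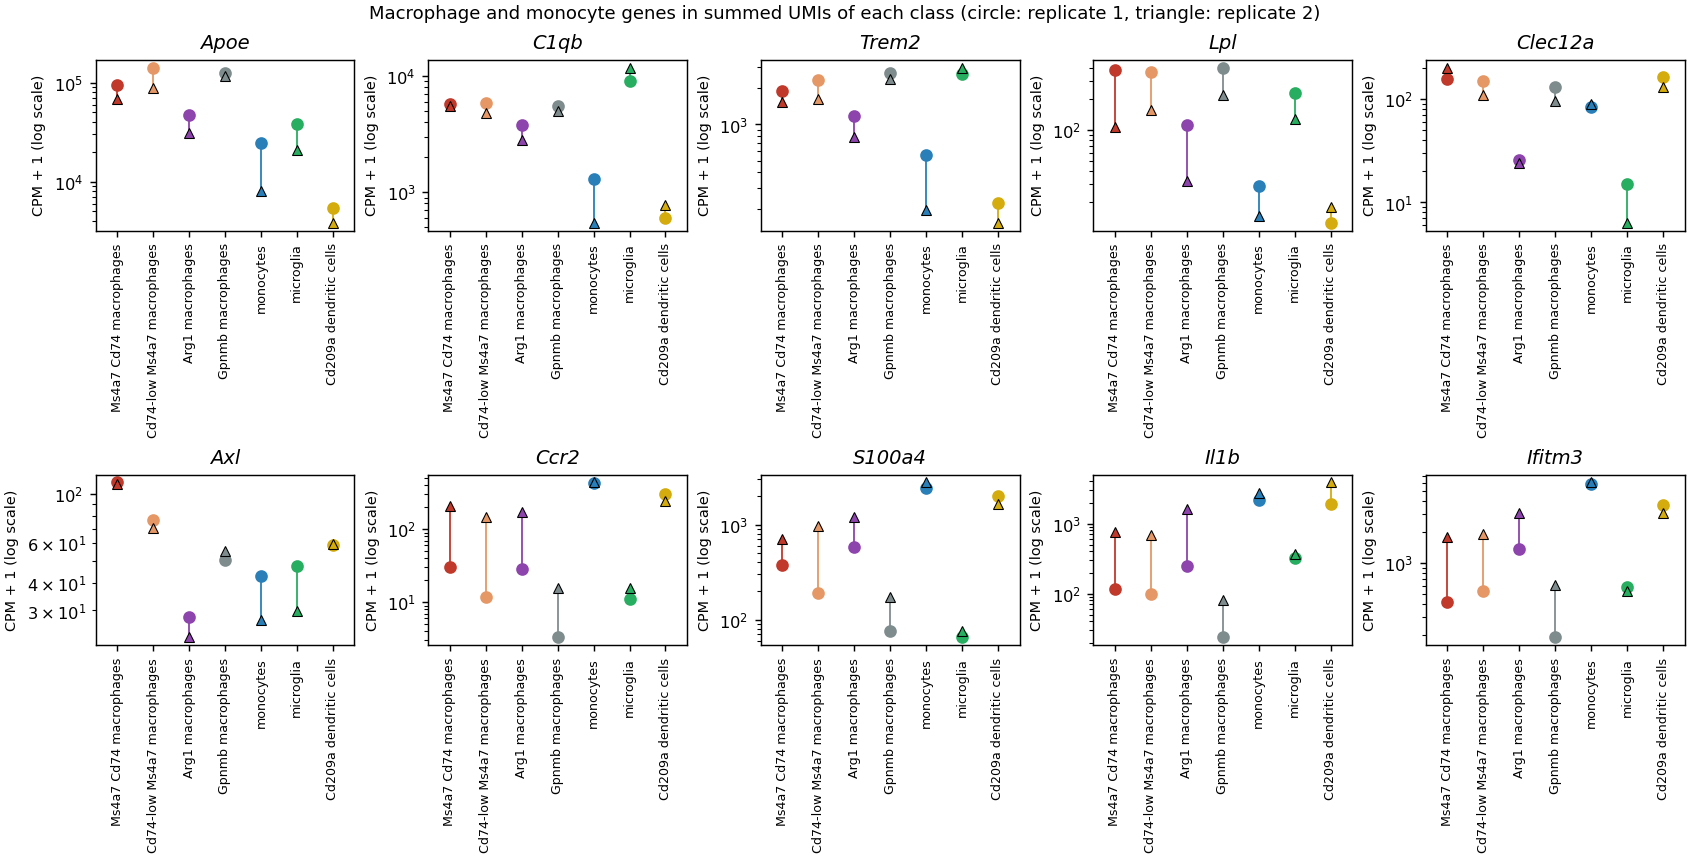
Levels of 10 macrophage and monocyte genes in each gated class, 1 point per library, as CPM with 1 added on a logarithmic axis. Axl is highest in the Ms4a7+Cd74+ macrophages in both libraries, C1qb and Trem2 lie above the monocytes, and Ccr2 and Il1b differ widely between the libraries.

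The Cd209a dendritic cells, 25 and 44 cells, were under the 50 cells per library set for the other classes, and the fit that holds them was chosen after seeing the data. Of 9317 genes 6.42% were called higher and 5.23% lower (11.6% in all) in the Ms4a7+Cd74+ macrophages. Dendritic genes were scarce: the summed level of 12 dendritic markers outside the gates was 37.7 and 38.5 CPM, against 1536 and 1221 CPM in the dendritic cells. The gates set these classes apart by Cd209a, so this scarcity follows in part from them. Clec10a, a C-type lectin of conventional dendritic cells, was at 6.53 and 6.84 CPM against 244 and 463 (-5.64 ± 0.43, edgeR adjusted p = 1.2e-07). Zbtb46, the transcription factor that marks conventional dendritic cells, had 0 UMIs, which allows up to 2.18 and 2.56 CPM, against 34.9 and 19.6. Flt3, their growth factor receptor, was at 0 and 2.56 CPM against 93.1 and 48.9.

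Macrophage genes were abundant in comparison with the dendritic cells. Of 16 cathepsin and lysosome genes 12 were higher and 1 lower (median 1.76 beside 0.10 over all genes), and of 23 lipid-handling genes 15 were higher and 1 lower (median 2.62). Ctsd was at 7830 and 5040 CPM against 1001 and 416 (3.46 ± 0.18, edgeR adjusted p = 1.7e-12). C3ar1, the receptor for the complement fragment C3a, was at 257 and 234 CPM against 0 and 19.6, without overlap. Of 15 costimulatory genes 7 were lower and 3 higher, and Cd83 (-0.95 ± 0.22) and Cd86 (-1.17 ± 0.27) were among the 7. The call of Cd86 was lost without the library block (edgeR adjusted p = 0.268), and that of Cd83 with at least 2000 UMIs and 1000 genes per cell (0.089). Irf4, a transcription factor of conventional dendritic cells, was at 0.726 and 0.854 CPM against 11.6 and 19.6.

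Axl was called higher in the Ms4a7+Cd74+ macrophages against each of the 4 classes, and its level also exceeded that of the Cd74-low (75.8 and 69.2 CPM) and Gpnmb macrophages (49.4 and 54.2 CPM) in both libraries, where no test was made. The call against dendritic cells (0.92 ± 0.29, edgeR adjusted p = 0.038) was lost with DESeq2 (0.105), without the block (0.0775), and under 3 other settings. Bst2, the interferon-inducible membrane protein tetherin, was likewise called higher against all 4 (log2 fold changes from 0.73 to 1.72) but was at 1119 and 1486 CPM beside 1137 and 1341 in Cd74-low macrophages. These comparisons share the same Ms4a7+Cd74+ sums.

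**Figure D4:**
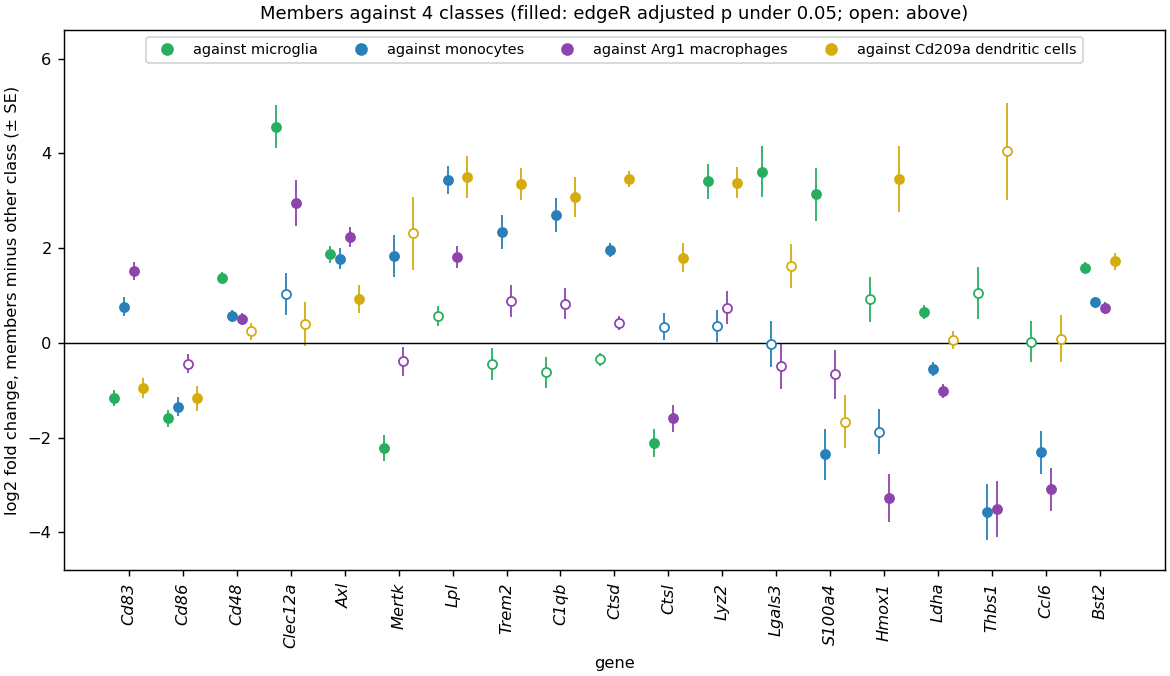
Log2 fold changes of 19 genes between Ms4a7+Cd74+ macrophages and 4 classes, with bars of ± 1 standard error and filled points where the edgeR adjusted p is under 0.05. Axl and Bst2 lie above 0 in all 4 comparisons. Cd86 lies below 0 in all 4 and is filled against microglia, monocytes and dendritic cells.

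Beside the Cd74-low macrophages, their nearest neighbours across the Cd74 threshold, the Ms4a7+Cd74+ cells overlapped in some of the genes named so far and not in others. Clec12a was at 148 and 109 CPM in the Cd74-low cells, below the Ms4a7+Cd74+ cells at 155 and 200, with the gap wider in replicate 2. Trem2 was at 2358 and 1613, Lpl at 360 and 155 and C1qb at 5877 and 4779, each overlapping with the Ms4a7+Cd74+ cells. Fabp5 was at 4375 and 2817 CPM in the Cd74-low cells without a Cd74 UMI (885 and 120 cells). That was above the Ms4a7+Cd74+ cells within each library. Fabp5, Lipa, Lyz2, Lgals3 and Ctsd were not tested against Cd74-low or Gpnmb macrophages. Their differences from other classes are therefore not shown to be particular to the Ms4a7+Cd74+ cells. With the same thinning, a Cd83 UMI was in 23.4% and 25.4% of Ms4a7+Cd74+ cells and in 21.3% and 17.8% of Cd74-low cells. For Cd86 the shares were 5.85% and 9.32%, against 8.57% and 17.1%. Cd83 was thus close to the Cd74-low cells in replicate 1. Itgax, the integrin CD11c, was at 29.7 and 44.4 CPM in Ms4a7+Cd74+ cells and at 9.69 and 14.0 CPM in Cd74-low cells, without overlap. Ctsl, which encodes cathepsin L, was at 615 and 396 CPM, below the Cd74-low cells at 811 and 927 CPM. Mrc1, the mannose receptor of border macrophages, was at 14.5 and 29.9 CPM, below the Cd74-low cells at 66.1 and 109. Folr2, a folate receptor of border macrophages, was at 30.5 and 22.2 CPM beside 60.2 and 48.6. Of the border macrophage markers, edgeR called 7 of 12 tested higher and 1 lower against microglia (median 1.88), 3 higher with the other 9 not called against monocytes, and 1 higher (Clec12a) and 2 lower against Arg1 macrophages. Of the same list, Cd163 and Lyve1 had 0 UMIs in the Ms4a7+Cd74+ cells, and the summed level of the 14 markers was 1437 and 895 CPM there and 1921 and 2409 CPM in the Cd74-low cells.

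The libraries differed within the Ms4a7+Cd74+ macrophages. Ccr2, the chemokine receptor of recruited monocytes, was at 29.7 CPM in replicate 1 and 208 CPM in replicate 2. A Ccr2 UMI was found in 22 cells (10.5%, 95% Clopper-Pearson interval 6.68% to 15.4%) and 56 cells (47.1%, 37.8% to 56.4%), and after thinning to 2000 UMIs in 4.88% and 23.7%. In microglia, the background for this gene, the share was 3.02% and 3.52%. The nearest classes shifted likewise, with a Ccr2 UMI in 4.64% and 34.6% of the Cd74-low and 9.31% and 46.5% of the Arg1 macrophages. Il1b, the interleukin 1 beta cytokine, was at 117 and 766 CPM, and the interferon-inducible Ifitm3 at 414 and 1782 CPM. In the Cd74-low macrophages Il1b was at 97.2 and 696 CPM and Ifitm3 at 533 and 1911 CPM, which is a shift in the same direction. Fabp5 went the other way, at 4325 and 1552 CPM, as did Spp1, which encodes osteopontin, at 7627 and 4452. With 2 libraries that the labels do not tell apart, these values are given without a test.

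Ms4a7+Cd74+ cells with and without a Ccr2 UMI differed in the same direction in both libraries for some genes. For others, the 22 cells with a Ccr2 UMI in replicate 1 held too few UMIs to give a direction. The summed H2 level was 6760 CPM in cells with a Ccr2 UMI and 2576 CPM in those without in replicate 1, and 10480 and 6263 CPM in replicate 2. Il1b was at 242 and 104 CPM in replicate 1 and at 1496 and 131 CPM in replicate 2. Spp1 was lower in cells with a Ccr2 UMI, at 2511 against 8170 CPM and 1422 against 7086 CPM, and so was Apoe, at 78301 against 96552 and 59463 against 77074. Plac8, Chil3, Ly6c2 and Mndal were higher with a Ccr2 UMI in replicate 2. Their values in the replicate 1 cells with a Ccr2 UMI rest on few UMIs or none. Plac8 was at 0 CPM with a Ccr2 UMI and 8.03 without in replicate 1 and at 342 and 12.8 in replicate 2. Chil3 was at 37.8 and 61.8 CPM and then at 527 and 113, Ly6c2 at 0 and 20.1 and then at 307 and 155, and Mndal at 22.7 and 39.3 and then at 143 and 113. Cells with 24 or more Cd74 UMIs also had the most Ccr2 among the Cd74 ranges, 60.2 and 250 CPM. Their Apoe was the lowest of the 4 ranges in each library, 79705 and 54420 CPM. The median depths of cells with and without a Ccr2 UMI were 6323 and 6149 UMIs in replicate 1 and 9489.5 and 8992 in replicate 2.

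Single cells carried some rarer transcripts. Ccr7, the receptor that guides dendritic cells to lymph nodes, was found in 2 and 1 cells, of which 1 per library held 12 UMIs. Ccl5, a T cell attractant, had 361 UMIs in replicate 2, of which 283 came from 1 cell that also held the 12 Ccr7 UMIs and 405 Cd74 UMIs. Ccr7 was called higher against microglia and Arg1 macrophages in edgeR, but the calls rest on these 3 cells. T cell markers summed to 7.98 and 0.854 CPM with 6 of 8 at 0, natural killer markers to 1.45 and 4.27 CPM with 6 of 7 at 0, and neutrophil markers to 39.9 and 30.8 CPM with 3 of 9 at 0. B cell markers summed to 79.1 and 80.3 CPM with Ms4a1 and Pax5 at 0, and Cd79b and Ighm were called higher than in Arg1 macrophages. In replicate 1 the B cell marker Iglc2 had 49 UMIs, all in 1 cell, and in replicate 2 it had 0. Cd79a was found in 1 cell of each library. The part of cells with such markers in the class II levels was not tested. Doublet calls marked 11 (5.24%) and 5 (4.2%) of the Ms4a7+Cd74+ cells.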

How the data were processed

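Single-cell RNA of 1 group in 2 libraries was analysed. What the authors deposited are raw counts of UMIs for each gene and barcode, covering every barcode of the kit; per the file headers, Cell Ranger 4 wrote them. Cell Ranger 4.0.0, STAR 2.5.1b, and Seurat 4 stand in the submitters' processing notes, as do GRCh38, GRCm38 and mm10. The role of GRCh38 and the handling of reads shared by near-identical genes are not given in the sources used here.

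Cells were barcodes with at least 1000 UMIs, 500 genes and at most 10% mitochondrial UMIs. Barcodes under 100 UMIs, taken as free RNA, held 4.91% and 4.40% of all UMIs. The gates, the 18 gene lists and the 10 marker lists were chosen with earlier results of these data known. Microglia had at least 20 UMIs per 10000 of the 6 microglia genes, and dendritic cells at least 2 Cd209a UMIs. Monocytes had at least 5 UMIs of Ly6c2, Plac8 and Chil3. The other classes were gated as the report says. Doublets were kept and left out as an alternative: Scrublet (scanpy 1.11.5) marked 1426 cells in replicate 1 and 0 in replicate 2, where the 501 top-scoring cells were taken instead.

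For each class, UMIs were added up within a library. The sums were tested with edgeR 4.0.16 (R 4.3.3; TMM, filterByExpr, quasi-likelihood, adjustment over all genes tested), with 6 classes and the library as block. The dendritic fit, added after seeing the data, held 7 classes. The block was used because both sides of a comparison come from the same libraries. Library deviations of the Ms4a7+Cd74+ sums correlated with those of microglia at 0.198, of monocytes at 0.046 and of Arg1 macrophages at 0.285, over 9428 genes. Listed genes were named within their lists. Beyond the lists, candidates were the 12 largest rises and falls among called genes with the same sign in both libraries and at least 100 CPM in the higher class. Itgax, Axl and Bst2 beside Cd74-low cells, the Ccr2 split, Ccr7 and Ccl5 were singled out after their values were seen. Alternatives were DESeq2 1.42.0, RLE normalization, no filter on low counts, no block, stricter cell and Cd74 minimums, thinning to 2000 UMIs, doublets left out and each replicate left out. The scripts were tested on simulated counts. Positions follow GENCODE vM21, which holds 99.9% of the gene IDs. Other steps ran in Python 3.11.15 with pandas 2.3.3, numpy 2.4.6 and scipy 1.17.1, and plots in matplotlib 3.10.9.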

Additional observations from a re-analysis of the deposited data

How the results depend on the processing

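The numbers of genes called higher and lower stayed within 1.5 times in each comparison under the settings not named here. Against microglia, thinning to 2000 UMIs left 818 and 869 (from 1760 and 1845). Against monocytes (757 and 878), the counts were 438 and 546 without the replicate block, 491 and 551 with at least 2000 UMIs and 1000 genes per cell, and 334 and 308 with thinning. Against Arg1 macrophages (308 and 256), they were 91 and 94 without the block and 187 and 115 with thinning. The lower calls there were 414 with no filter on low counts and 162 with at least 2000 UMIs. Against dendritic cells (598 and 487), 389 were higher without the block, and with thinning the counts were 289 and 211. The share of Ms4a7+Cd74+ cells in replicate 1 was 1.66% with the stricter cell minimums and 1.04% with at least 6 Cd74 UMIs. Of 530 named calls, 361 were kept without the block, 528 with RLE normalization and 514 without doublets; thinning kept 366 of 487 and DESeq2 501 of 527. Leaving out replicate 1 moved 50 of the 530 values by more than the spread between replicates and leaving out replicate 2 moved 88, most of them against dendritic cells in the latter. Leaving out replicate 2 also turned Ms4a8a against microglia to -2.17 (from 2.95, and 3.75 without replicate 1): the Ms4a7+Cd74+ cells of replicate 1 held 0 of its UMIs. With 1 library per class no spread can be estimated, so those fits give no count of calls.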

Other observations

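Factors of microglia identity and of monocyte inflammation were both lower in the Ms4a7+Cd74+ macrophages than in those cells. Against microglia 2 of 20 listed factors were called higher and 9 lower in edgeR, beside 18.7% and 19.6% of all genes. Sall1, a defining factor of microglia, was at 3.63 and 4.27 CPM against 127 and 132 (log2 fold change -4.75 ± 0.32), and Mef2c, another factor of microglia, at 141 and 122 CPM against 669 and 731 (-2.13 ± 0.15). Microglia were gated on microglia genes, so the lower Sall1 and Mef2c follow in part from the gates. Against monocytes 3 were higher and 8 lower, beside 8.04% and 9.33% of all genes. Cebpb, an inflammation-induced factor, was at 546 and 1261 CPM against 3023 and 3862 (-2.03 ± 0.35, edgeR adjusted p = 0.014), while its relative Cebpa was at 135 and 201 CPM against 56.5 and 69.5 (1.43 ± 0.14, edgeR adjusted p = 4.9e-06).

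Interferon-stimulated genes differed between the libraries. Isg15, a ubiquitin-like protein induced by type I interferon, was at 26.8 CPM in replicate 1 and 178 CPM in replicate 2 of the Ms4a7+Cd74+ cells, and Ifit3 at 18.9 and 91.4 CPM. In the Arg1 macrophages Isg15 was at 92.1 and 424 CPM, and in the monocytes at 418 and 703 CPM. Of 20 type I interferon genes edgeR called 2 higher against microglia, 1 higher and 4 lower against monocytes and 1 higher against Arg1 macrophages. Over all genes, 18.7% were higher against microglia, 8.04% higher and 9.33% lower against monocytes and 3.27% higher against Arg1 macrophages. Apart from the 4 lower against monocytes, the list counts lie near or below these shares. Of 10 Ifi200 family genes, the family of the marker Mndal, 1 was called lower against monocytes (Ifi209, -2.86 ± 0.59) and the other 9 were not called. That is near the 9.33% over all genes.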
